A study of Homo sapiens with 6 samples.

Results

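The SLC16 genes encode monocarboxylate transporters, and BSG encodes basigin, the membrane chaperone that several of them need. The genes asked for were SLC16A1, SLC16A3, SLC16A4, SLC16A5, SLC16A6, SLC16A7, SLC16A9, SLC16A10 and BSG, and every probe set that the platform annotation pairs with 1 of these 9 genes was taken. This gave 14 of the 54675 probe sets on the array, which stand for 6 of the 9 genes. SLC16A1, SLC16A3 and SLC16A6 have no probe set under their name in the annotation used and are not analysed here. The family was chosen by the siRNA difference of SLC16A9 in an earlier pass over these arrays, so the members' siRNA differences below are given as a description. Counts of genes passing the siRNA fits are printed as background, and nothing is read from them about the members.

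The arrays come from K562 cells, an established chronic myeloid leukaemia line. All cells were nucleofected, at up to 200 nM, either with an siRNA that the labels call RNAi8 or with scrambled RNA, and after 24 hours were given all-trans retinoic acid (ATRA) or DMSO, its solvent. The time of exposure is not given in the sources used here, and no array came from cells without nucleofection. There were 6 arrays from 3 independent experiments, each with 1 siRNA and 1 scrambled array. ATRA was used in experiments 1 and 3 and DMSO in experiment 2 alone, so a treatment difference cannot be told apart from a difference between experiments. The series concerns PRAME, a repressor of retinoic acid receptor signalling, and its log2 signal was 12.10 to 12.14 on the siRNA arrays against 12.70 to 13.00 on the scrambled arrays, which leaves 58.4% of the scrambled signal. These are bulk samples, in which fewer cells of a type and less RNA per cell cannot be told apart.

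Monocarboxylate transporters of the proton-linked kind carry lactate, pyruvate and ketone bodies across the plasma membrane, which lets glycolytic leukaemia cells export lactate with a proton. Other members have different cargo: SLC16A9 moves carnitine and SLC16A10 moves aromatic amino acids and thyroid hormone. Basigin is an immunoglobulin-like glycoprotein that escorts SLC16A1 and SLC16A3 to the cell surface, while SLC16A7 pairs mainly with its relative embigin.

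The promoters of the transporter that differed most with the siRNA, SLC16A9, and of BSG, which differed most between experiments, are shown so that their starts can be compared. RefSeq (GRCh38.p14) gives SLC16A9 a pair of overlapping start windows on the minus strand, chr10:59710030-59710329 and chr10:59709801-59710100, and the BSG window shown, 1 of the 2 listed for it, is chr19:572346-572645 on the plus strand. Each window has 300 bases, and capitals mark GGGCGG, the letters of a GC box, and CACGTG, those of an E-box, on either strand.
SLC16A9 upstream window: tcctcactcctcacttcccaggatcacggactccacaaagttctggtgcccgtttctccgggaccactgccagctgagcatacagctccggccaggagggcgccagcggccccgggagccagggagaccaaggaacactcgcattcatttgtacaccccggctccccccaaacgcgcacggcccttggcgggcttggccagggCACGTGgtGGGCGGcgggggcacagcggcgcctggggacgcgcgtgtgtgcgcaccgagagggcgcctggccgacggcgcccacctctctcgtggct
SLC16A9 downstream window: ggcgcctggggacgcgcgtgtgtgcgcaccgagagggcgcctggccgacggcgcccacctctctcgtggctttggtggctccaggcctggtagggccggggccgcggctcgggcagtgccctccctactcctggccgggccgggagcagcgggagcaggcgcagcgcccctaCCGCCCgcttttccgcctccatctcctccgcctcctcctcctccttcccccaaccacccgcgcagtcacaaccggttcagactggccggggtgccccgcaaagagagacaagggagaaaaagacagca
BSG window: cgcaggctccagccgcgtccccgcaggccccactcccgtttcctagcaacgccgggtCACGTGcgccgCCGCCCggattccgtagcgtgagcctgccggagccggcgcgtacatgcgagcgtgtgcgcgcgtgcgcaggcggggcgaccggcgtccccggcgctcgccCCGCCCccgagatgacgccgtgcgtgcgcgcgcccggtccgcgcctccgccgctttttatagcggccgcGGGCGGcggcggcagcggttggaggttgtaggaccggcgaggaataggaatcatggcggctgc

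The GC content was 69.7% and 71.7% in the SLC16A9 windows and 75.3% in the BSG window, against a median of 58.7% over 35116 promoter windows of the same length. The upstream SLC16A9 window held CACGTG at base 204 and GGGCGG at base 212, counted from its 5′ end, and the downstream window held the reverse complement of GGGCGG at base 173. The BSG window held CACGTG at base 58 and GGGCGG at base 238, with its reverse complement at bases 69 and 169. The other BSG window, chr19:571033-571332 on the plus strand, has a GC content of 56.7%, below that median, and held neither motif. Among all promoter windows 45.0% held GGGCGG and 7.26% held CACGTG on either strand. AGGTCA, a core letter set of nuclear receptor sites that 13.8% of windows hold, and its variant AGTTCA, held by 10.4%, were in none of these 3 windows. Promoter windows were found for 5 of the 6 measured genes, 8 windows in all, and AGGTCA occurred in 1 of them, at base 270 of the SLC16A10 window. No binding was measured, and which start K562 cells use was not tested.

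Signals are log2 values, so a difference of 1 is a doubling of signal. A probe set with a mean below 5.99, the median of all probe sets, is called dim here, since such a signal was not shown to be above background. By this mark 5 of the 14 probe sets were not dim, namely the only SLC16A9 probe set, all 3 of SLC16A5 and the only BSG probe set. Passing the mark does not show expression, since markers of other cell types passed it too, such as CD79B at 6.70 and KRT5 at 6.52. The SLC16A5 probe sets 206599_at and 213590_at had means of 6.66 and 6.63. The other 9, for SLC16A4, SLC16A7 and SLC16A10, were dim, with means from 2.69 to 5.81. Signals of different probe sets are not compared with each other.

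**Figure D1:**
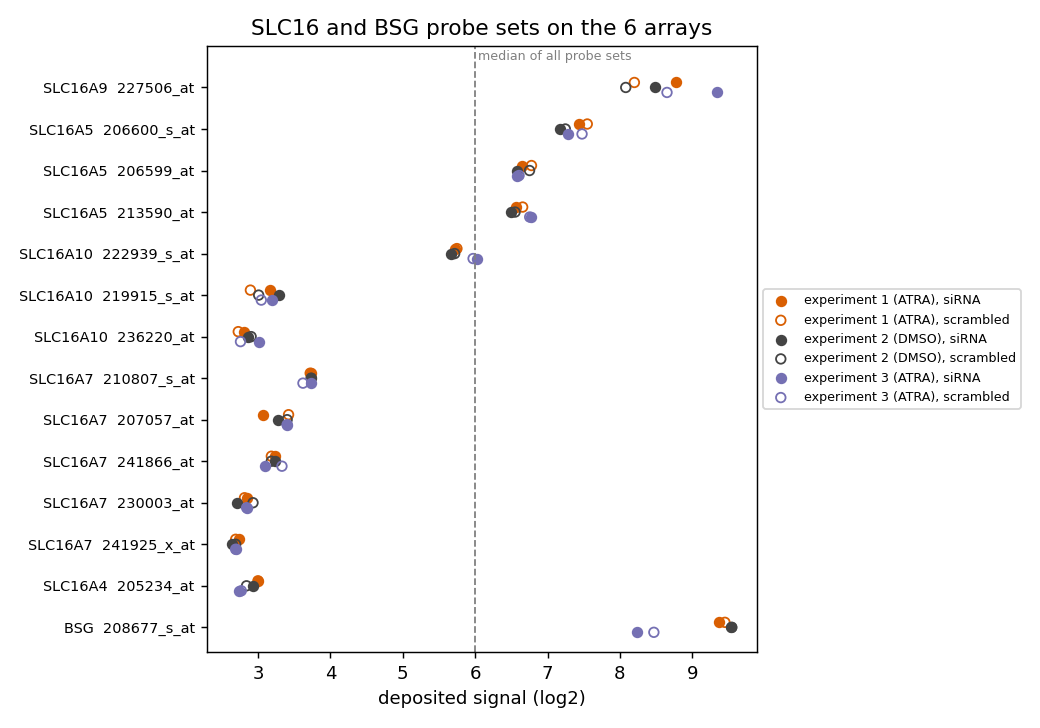
Deposited log2 signal (x axis) of the 14 probe sets (rows) on the 6 arrays, with filled points for siRNA, open points for scrambled RNA and a colour for each experiment. SLC16A9, SLC16A5 and BSG lie to the right of the dashed line at 5.99. The purple points of experiment 3 are the lowest for BSG, and for SLC16A9 each is the highest of its own RNA.

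The arrays of experiment 3 stand apart from the rest. They correlated with the other 4 at 0.979 to 0.982 over all probe sets, which are not independent replicates, against 0.996 to 0.998 among those 4. On the array's quality probe sets the 3′ signal of actin exceeded the 5′ signal by 2.98 and 3.36 in experiment 3 and by 0.63 to 0.92 elsewhere, and for GAPDH by 1.20 and 0.74 against 0.03 to 0.08. Of 8 K562 markers such as TFRC, the transferrin receptor, 7 were measured and all 7 were above 5.99, with means from 8.02 to 13.34. Of 17 measured markers of lymphocytes, myeloid cells, stroma and epithelium, 6 were above it, led by the myeloid gene LYZ at 9.73.

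SLC16A9, the carnitine transporter, was higher with the siRNA in each experiment. Its probe set, 227506_at, read 8.78 with siRNA and 8.20 with scrambled RNA in experiment 1, 8.49 and 8.08 in experiment 2, and 9.34 and 8.65 in experiment 3. Within each experiment the siRNA array was the brighter, yet the groups overlapped, because the siRNA array of experiment 2 was dimmer than the scrambled array of experiment 3. The group means were 8.87 ± 0.43 (SD, n = 3) with siRNA and 8.31 ± 0.30 (SD, n = 3) with scrambled RNA. The paired differences were 0.58, 0.41 and 0.69, with a mean of 0.56 ± 0.14 (SD, n = 3), a fold of 1.47. That fold was 1.49 and 1.61 under ATRA and 1.33 under DMSO. No other probe set of SLC16A9 is on the array to set beside this one.

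With no block for the experiment 0 genes passed an adjusted p of 0.05 in limma, 0% of 19775, while 255 lay under 0.05 before adjustment. A block for the experiment let 5 genes pass, 0.0253% of those tested. The family was picked by this contrast, so calls of single members are not given and nothing is read from these counts about them. When experiment 1, 2 or 3 was left out of the blocked fit, 0.00506%, 0.00506% and 0.0101% of genes passed. In the fit with no block 0.00506%, 0% and 0.0101% did. Without experiment 1 or 3 those are the same fit, since treatment and experiment then coincide. With the block and each of 54613 probe sets tested on its own, 1 probe set passed (0.00183%).

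SLC16A5, a transporter known to carry drugs such as bumetanide, had slightly less signal with the siRNA. Its brightest probe set, 206600_s_at, read 7.43 with siRNA and 7.55 with scrambled RNA in experiment 1, 7.17 and 7.24 in experiment 2, and 7.28 and 7.48 in experiment 3. The siRNA array was lower in each experiment, with differences of -0.12, -0.08 and -0.20, but the groups overlapped. The mean difference was -0.13 ± 0.06 (SD, n = 3), a fold of 0.913. The other probe sets differed by -0.11 ± 0.07 (206599_at, lower in all 3 experiments) and -0.04 ± 0.05 (213590_at, lower in experiments 1 and 2 and higher by 0.02 in experiment 3; SD, n = 3 each). All 3 probe sets had a mean difference below 0.

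BSG, the chaperone, read 9.37 with siRNA and 9.45 with scrambled RNA in experiment 1, 9.54 with either in experiment 2, and 8.23 and 8.47 in experiment 3. The siRNA differences were -0.08, -0.0048 and -0.23, a mean of -0.10 ± 0.12 (SD, n = 3), so the spread was as large as the mean. The low arrays were the siRNA and the scrambled array of experiment 3, whichever RNA was given. Across the 6 representative probe sets, 1 per gene, SLC16A9 was higher in all 3 experiments and SLC16A5 and BSG were lower in all 3. Over all genes 13.1% were higher and 11.9% were lower in all 3 experiments. On these probe sets of SLC16A9, SLC16A5 and BSG the largest siRNA difference was that of experiment 3. On the other SLC16A5 probe sets it was not. The siRNA and scrambled arrays of experiment 3 had actin gaps of 2.98 and 3.36 and GAPDH gaps of 1.20 and 0.74. The part of these gaps in the siRNA differences was not tested.

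The 9 dim probe sets had mean siRNA differences from -0.16 to 0.23. SLC16A7, a high-affinity pyruvate and lactate transporter, has 5 probe sets with means of 2.69 to 3.71, and their siRNA differences averaged -0.16 to 0.03. On its probe set 241925_x_at 4 of the 6 arrays held the same deposited value, and on 3 others of its probe sets 3 arrays did, so these signals hardly separate the arrays. SLC16A4, a member whose cargo is poorly known, had a mean of 2.88 and differed by 0.0068, 0.08 and -0.03. SLC16A10, the aromatic amino acid carrier, was closest to the readable range with 222939_s_at at 5.81, where the differences were -0.03, -0.04 and 0.05. A dimmer SLC16A10 probe set, 219915_s_at at 3.10, differed by 0.27, 0.28 and 0.15, and 236220_at at 2.85 by 0.08, -0.05 and 0.26. At such levels these are differences in signal alone.

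**Figure D2:**
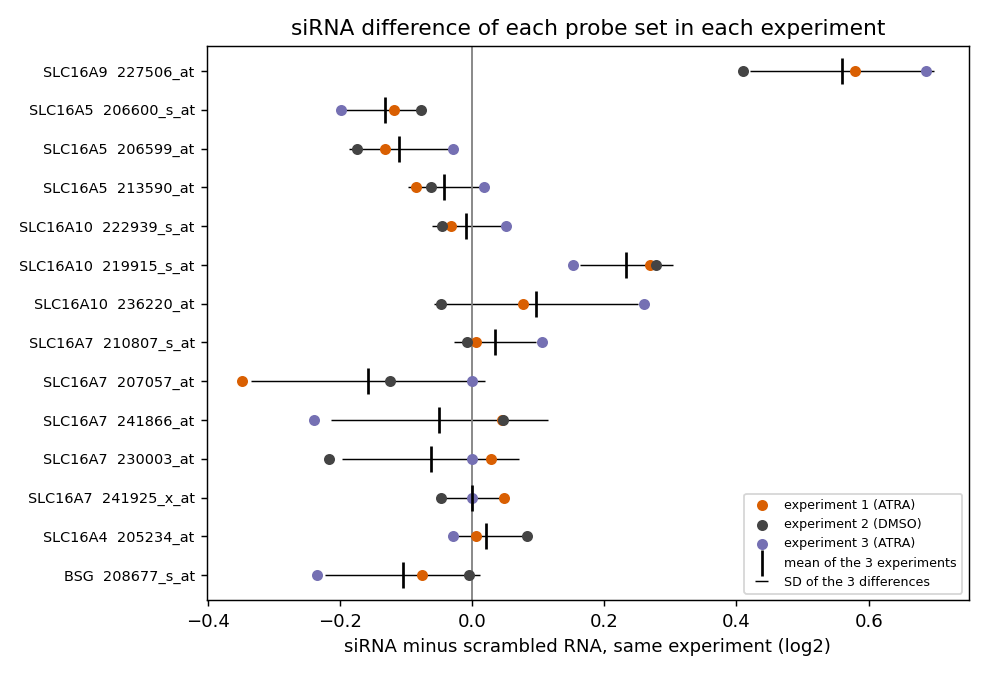
Difference between the siRNA and the scrambled array of the same experiment (x axis, log2) for the 14 probe sets (rows), with a point for each experiment, a tick for their mean and a line for their SD. SLC16A9 lies at 0.41 to 0.69, and the single differences of the other 13 probe sets run from -0.35 to 0.28. The family was chosen by the SLC16A9 difference, so its place apart follows from that choice.

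Whether the siRNA differences depended on ATRA was asked by subtracting the difference under DMSO from the mean difference under ATRA. For SLC16A9 this gave 0.22, with a 95% interval of -1.16 to 1.60 in the fit of 4 groups and of -0.06 to 0.51 with the experiment as a block. BSG gave -0.15 (interval -2.81 to 2.51, with the block -0.44 to 0.14) and SLC16A5 gave -0.08 (interval -0.63 to 0.47, with the block -0.39 to 0.23). The dim SLC16A4, SLC16A7 and SLC16A10 gave -0.09, 0.06 and 0.05. None of the 6 genes passed, and 0 of 19775 genes did (0%; limma, smallest adjusted p = 1 without and 0.998 with the block), with 262 genes under 0.05 before adjustment without the block and 655 with it. With DMSO cells on 1 array per RNA, the intervals leave room for a large dependence as well as for none.

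SLC16A9 was also brighter in both ATRA experiments than in the DMSO experiment. Averaged over its siRNA and scrambled array, experiment 1 stood at 8.49 and experiment 3 at 8.99, both with ATRA, and the DMSO experiment at 8.28. On single arrays the treatments overlapped, since the scrambled array of experiment 1 (8.20) lay below the siRNA array of experiment 2 (8.49). The difference, ATRA minus DMSO, was 0.46 ± 0.34 (SE, 2 ATRA experiments and 1 DMSO experiment; 95% interval -0.51 to 1.42, adjusted p = 0.995 in limma). It was 0.20 for experiment 1 and 0.71 for experiment 3, and the larger value belongs to the experiment with the wide control gaps, whose part in it was not tested. Scrambled arrays alone gave 0.34 between ATRA and DMSO.

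SLC16A5 was the member whose ATRA arrays all lay above its DMSO arrays on the representative probe set. The experiment means were 7.49 and 7.38 with ATRA and 7.21 with DMSO, and 13.5% of all genes had the same order on all 6 arrays. The difference was 0.23 ± 0.18 (SE, 95% interval -0.27 to 0.72, limma adjusted p = 0.995), with 0.28 from experiment 1 and 0.17 from experiment 3. The part of the control gaps in it was not tested. Of its other probe sets, 213590_at differed by 0.17 and 206599_at by -0.01, and the mean of all 3 was 0.13.

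BSG had the opposite order, with all 4 ATRA arrays below both DMSO arrays, as had 13.2% of all genes. Its experiment means were 9.41 and 8.35 with ATRA and 9.54 with DMSO. The difference was -0.66 ± 0.55 (SE, 95% interval -2.21 to 0.89, limma adjusted p = 0.995), made up of -0.13 in experiment 1 and -1.19 in experiment 3. Experiment 3 differed from experiment 1 by -1.06, and 0.657% of all genes lay at least as far below both other experiments, a mark set by BSG's own value. It is the experiment with the wide control gaps, whose part in the BSG signal was not tested. Among the dim members, SLC16A10 differed by 0.17 on its brightest probe set, with 0.04 in experiment 1 and 0.30 in experiment 3. Its other probe sets differed by -0.07 and -0.05, and the mean of all 3 was 0.01. SLC16A4 differed by -0.0046 and SLC16A7 by -0.03.

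**Figure D3:**
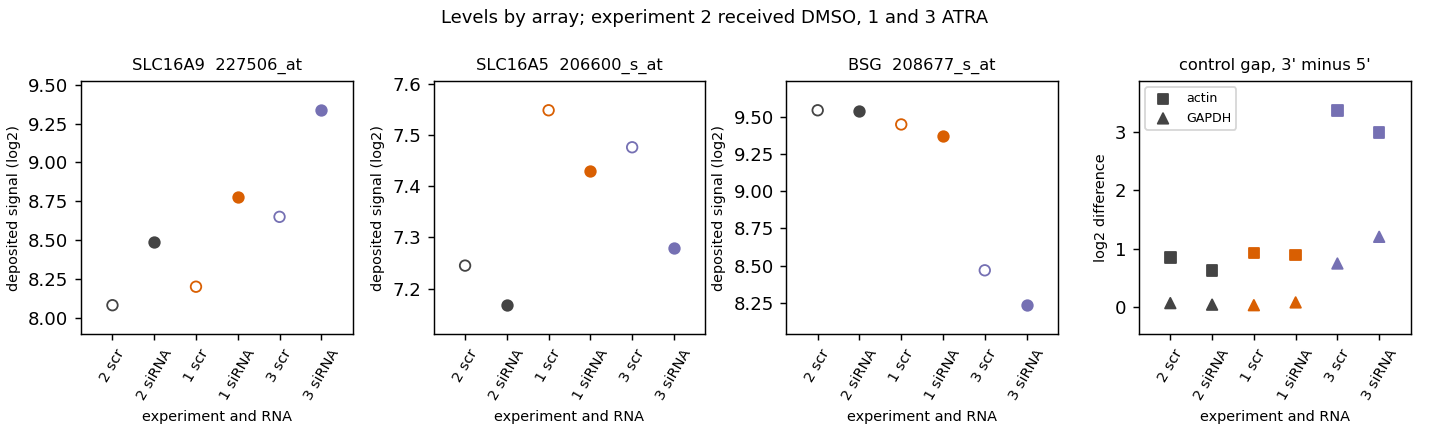
Deposited log2 signal of SLC16A9, SLC16A5 and BSG on each array (first 3 panels; filled points siRNA, open points scrambled RNA, y axes differ in range and do not start at 0) and the 3′ minus 5′ gap of actin and GAPDH control probe sets (last panel). Actin gaps are 2.98 and 3.36 in experiment 3, where BSG is at 8.23 and 8.47.

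No gene of the family and no gene at all passed the test of ATRA against DMSO. In limma on the 3 experiment means 0 of 19775 genes passed (0%), and 235 lay under 0.05 before adjustment. On all 6 arrays 0.0101% of genes passed with the experiment as a random block and 0.0202% with no block, with 0 of the 6 members in either. Both ATRA experiments lay above the DMSO experiment for 3 of the 6 members, against 31.6% of all genes, and below it for 2 of 6, against 36.5%. In experiment 3 against experiment 2 alone, with the arrays of an experiment as replicates, 34.3% of all genes passed, among them SLC16A9, SLC16A10 and BSG. In experiment 1 against experiment 2, 0.668% of genes passed and none of the 6 members did. These fits compare single experiments and not treatments. CYP26A1, the retinoic acid-degrading enzyme, stood at 11.33 and 12.03 in the ATRA experiments and at 5.74 under DMSO. With a difference of 5.94 it too missed the test on the 3 experiment means. Missing that test therefore does not show that a gene was unchanged with ATRA.

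Genes around the transporters were taken from lists of lactate, ketone, carnitine, creatine, taurine and amino acid handling, 52 genes with 46 measured. None was called for the siRNA, with or without the block (background 0% and 0.0253%), with 21 above 0 and 25 below. In the fit with no block 0 genes passed, so PRAME, with 58.4% of the scrambled signal left, missed it too. Missing that test therefore does not show that a gene was unchanged with the siRNA. Of 12 lactate and pyruvate genes 8 had a difference above 0 and 4 below, with a median of 0.04 against 0.0056 over all genes. LDHA, which makes lactate from pyruvate, differed by 0.06, and MPC1, a subunit of the mitochondrial pyruvate carrier, by -0.07. Of 9 carnitine genes 6 had a difference above 0, with a median of 0.04 and a range from -0.11 to 0.08. The taurine transporter SLC6A6 differed by -0.15, -0.14 and -0.18, and SLC7A8, an amino acid exchanger, by -0.24, -0.20 and -0.08. With all probe sets of a gene averaged, the mean differences were -0.10 for SLC6A6 and -0.0097 for SLC7A8. EMB, which encodes embigin, was dim at 4.86. Of the 6 SLC16 genes outside the request, 2 were measured: SLC16A8, a lactate transporter of the retinal pigment epithelium, differed by -0.0058 at a level of 6.54, and the dim SLC16A14 by 0.21.

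Under ATRA the carnitine list stood highest of these lists, with a median difference of 0.23 against -0.0081 over all genes. Of its genes 6 of 9 lay above 0, and 0 of 9 passed the test, which no gene passed. SLC22A4, an organic cation transporter that takes up ergothioneine and some carnitine, read 7.63 and 8.45 in the ATRA experiments and 6.65 under DMSO. All 4 of its ATRA arrays lay above both DMSO arrays. The difference was 1.39 ± 0.41 (SE, limma adjusted p = 0.995), with 0.97 in experiment 1 and 1.80 in experiment 3. SLC22A5, the high-affinity carnitine importer, differed by 0.76 (0.45 in experiment 1 and 1.08 in experiment 3), and by 0.34 with its probe sets averaged. CPT1A, which joins fatty acids to carnitine, differed by 0.61 (0.39 and 0.84), and by 0.27 with its probe sets averaged. Of the lactate and pyruvate list 6 genes had a difference above 0 and 6 below (median 0.0025). The dim LDHD, with the smallest p of this list, differed by -0.27. DLAT, a pyruvate dehydrogenase subunit, differed by 0.43 (0.34 with its probe sets averaged) and MPC2, the partner of MPC1, by -0.50 (-0.32 averaged). AACS, which activates acetoacetate, differed by 0.51. SLC22A4, SLC22A5, CPT1A, LDHD, DLAT, MPC2 and AACS all differed more in experiment 3 than in experiment 1, and the part of the control gaps was not tested.

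**Figure D4:**
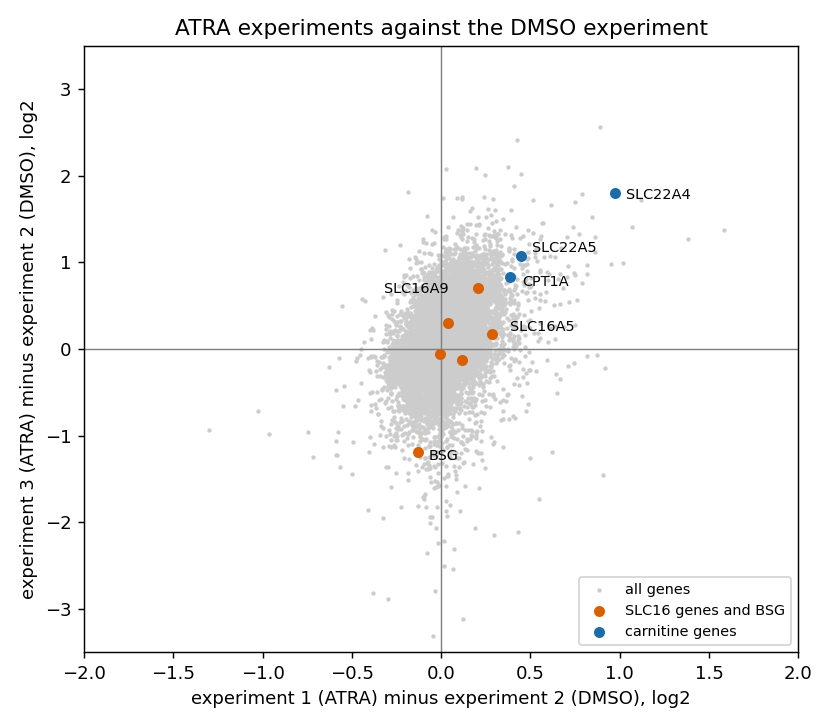
Each gene's difference from the DMSO experiment in experiment 1 (x axis) and in experiment 3 (y axis), in log2 units, with all genes in grey, the 6 members in orange and SLC22A4, SLC22A5 and CPT1A in blue. SLC16A9 (0.20 and 0.71) lies in the upper right, as do 31.6% of all genes and the blue genes. The blue genes are the 3 of 9 carnitine genes with the smallest p for ATRA, and 3 of the 9 had an ATRA difference below 0. BSG (-0.13 and -1.19) lies low, and 3 genes fall outside the axes.

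The genes whose levels followed SLC16A9 most closely over the 6 arrays were SALL2, BRPF3, POLI, PON2 and ODF2, with Pearson r of 0.941 to 0.951, among 3799 genes with a mean at or above the median gene, 6.73, and a range of at least 0.5. Of those, 27 reached 0.9. For BSG the closest were GEMIN2, EIF5A, CENPN, CSNK2B and PHF5A, with r of 0.999 to 1.00, and 888 of the 3799 genes reached 0.9. These coefficients come from 6 arrays of 3 experiments and carry no p: both arrays of experiment 3 are low for BSG, as they are for EIF5A, a translation factor at 12.40, 12.70 and 9.82 in the 3 experiments. SALL2, for example, differed with the siRNA by 0.15, 0.13 and 0.17, less than SLC16A9 in every experiment. It was picked by likeness over these same siRNA and scrambled arrays, so its siRNA differences are not a separate observation.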

How the data were processed

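The members and gene lists were chosen with earlier results of these data known. The deposited values are log2 signals of 54675 probe sets on 6 Affymetrix arrays, made by the authors with RMA per the series' design text and the submitters' processing notes, with no version or settings stated there. Array medians ran from 5.96 to 6.02, and the number of arrays limits the precision. The annotation gave 41091 probe sets 1 gene, 1801 several (not used for naming) and 11721 none. Control probe sets (62) were left out. Each of 19775 genes was represented by its probe set with the highest mean.

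Fits used limma 3.58.1 in R 4.3.3 (eBayes with an intensity trend, Benjamini-Hochberg over all genes, threshold 0.05). They were also run on simulated data, in which no experiment stood apart as experiment 3 does here, so that run says nothing about such a shift. The siRNA fit had treatment as covariate, ATRA was tested on experiment means, and the dependence on ATRA in a fit of 4 groups. Arrays with the same number were taken as pairs, since the labels name 3 independent experiments. Deviations from group means correlated at 0.679, 0.795 and 0.883 between same-numbered arrays. Between experiments 1 and 2 they also correlated, at 0.402 and 0.534, and between experiment 3 and the others at -0.796 to -0.627. Named were all members, up to 4 genes of each list by smallest p (a selection is given) and the 5 genes most like a member whose range was at least 0.5. Promoters came from RefSeq, GRCh38.p14. Alternatives were the block, other summaries of probe sets, a filter on dim genes, renewed quantile normalization, no trend and leaving out each experiment.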

Additional observations from a re-analysis of the deposited data

Results flagged for a closer look

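On 6 probe sets of the members and of the genes named from the lists, the siRNA difference had one sign in both ATRA experiments and the other sign under DMSO. Among the genes most like a member, ODF2, EIF5A, CENPN and PHF5A had this pattern too. That pattern was common: 15 of the 46 listed genes (32.6%) and 23.2% of all 19775 genes had it. The difference between ATRA and DMSO was 0.22 on SLC16A10 probe set 236220_at and 0.063 on SLC16A7 probe set 210807_s_at, both dim. It was -0.12 for SLC16A8, 0.26 for DLAT, -0.44 for the dim EMB and 0.14 for SLC22A4. For the 5 that represent their gene the fit of 4 groups gave no adjusted p below 1, and for the SLC16A10 probe set the difference was not tested apart from the fit over all probe sets, in which 0 passed (702 at an unadjusted p below 0.05).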

How the results depend on the processing

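The siRNA difference of SLC16A9 was 0.50 to 0.63 under all alternatives run. With 1 probe set and 1 pair of arrays per experiment, most alternatives could not move its estimate of 0.56. Only renewed quantile normalization (0.55) and leaving out an experiment did. The family was chosen by this difference, so the range is given as a description. The count of genes called for the siRNA was 0 without the block and 5 with the replicate block. With the block and each probe set on its own, an alternative chosen after seeing the data, it was 1. Leaving out an experiment gave 0 to 2 genes without the block and 1 to 2 with it, and without experiment 1 or 3 both are the same fit. For ATRA the count was 0 on experiment means, 2 with the experiment as a random block, 4 with 6 arrays and no block, and 132 to 6777 when 1 ATRA experiment was left out and arrays served as replicates, which compares single experiments. The block changed no call in the test of dependence on ATRA. The ATRA difference of SLC16A4 turned positive after renewed quantile normalization (0.0053), without experiment 3 (0.12, against -0.13 without experiment 1) and on scrambled arrays alone (0.043), and that of SLC16A7 with all its probe sets averaged (0.00073). So did the dependence on ATRA for SLC16A5 with its probe sets averaged (0.014). The cause was not tested. Leaving out the only DMSO experiment gives no ATRA comparison. All 3 genes missed the test in each of these. The SLC16A10 siRNA difference was -0.01 on its brightest probe set and 0.11 as a mean of its probe sets, and for SLC16A7 0.03 and -0.05. Signals below 5.99 set the limit for SLC16A4, SLC16A7 and SLC16A10.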
